A study of Mus musculus with 66 samples.

Results

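Whole cerebella of C57BL/6J mice at embryonic day 19 (E19), the last day of gestation sampled, were compared with those at E18, 1 day earlier. The comparison used 6 of the 66 arrays of the series: the 3 whose titles and column labels give C57BL/6J E19 and the 3 that give C57BL/6J E18. C57BL/6J is a common inbred mouse strain. No genotype, treatment or sex is given for either group, and nothing in the labels says how many cerebella made up a sample. The other 29 C57BL/6J arrays, from 10 other ages between E12 and postnatal day 9 (P9), entered the fit only to estimate the spread between replicates. E19 was sampled in C57BL/6J alone. The 3 DBA/2J arrays at E18, from another inbred strain, are used below because they lie on chips shared with both C57BL/6J groups.

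Late gestation is a busy period in the cerebellum. Granule cell progenitors multiply in the external granular layer under Sonic hedgehog released by Purkinje cells, Purkinje cells settle beneath that layer and begin to grow dendrites, and radial glia turn into Bergmann glia and astrocytes. Birth follows within about a day, with its change in breathing, circulation and hormones.

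RNA was hybridised to Illumina bead arrays, and all levels below are log2 of the quantile-normalized signal unless stated otherwise. The median deposited signal was 80.8 to 83.4 on the 3 E19 arrays and 83.5 to 85.2 on the 3 E18 arrays. A probe was kept if it exceeded the array median, 6.38 after normalization, on every array of at least 1 C57BL/6J age, which left 25843 probes for 18585 gene names. Most markers of the cerebellum were present at both ages, but Atoh1 (granule cell progenitors), Skor2 and Car8 (Purkinje cells) and Pax2 (interneurons) did not pass the filter. Granule cell lineage genes averaged 13.62 at E19 and 13.20 at E18 for Zic1, and 9.78 at E19 and 9.75 at E18 for Pax6. Purkinje cell Lhx1 averaged 11.92 at E19 and 11.69 at E18. The glial glutamate transporter Slc1a3 averaged 12.92 at E19 and 12.79 at E18. Among markers of adjoining brain, midbrain Th stayed below the array median on all 6 arrays. Midbrain Otx2, which granule cell progenitors of the posterior cerebellum also make, lay above it on all 6, at 9.98 at E19 and 9.97 at E18. Brainstem Hoxb3 lay just above it on all 6, at 6.50 at E19 and 6.40 at E18.

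The 2 ages shared none of their chips: E18 lay on 2 chips and E19 on 2 others. Age and chip therefore cannot be told apart within C57BL/6J. A fit of both strains with chip as a term can be had, because 1 DBA/2J E18 array lies on a chip of the C57BL/6J E18 arrays and 2 lie on a chip of the E19 arrays, and its values, called those with the chip block, are given for the main genes and lists and for many of the other named genes whose value it moved. The correlation over all kept probes was 0.9811 to 0.9919 within E19, 0.9891 to 0.9959 within E18, and 0.9811 to 0.9918 between the ages, so arrays of different age were about as alike as replicates.

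No probe passed the test at E19 against E18. At an adjusted p under 0.05 in limma, 0 of 25843 probes (0%) were called, and the smallest adjusted p was 0.103. At an unadjusted p under 0.05 there were 1553 probes (6.01%), of which 955 (3.70%) were higher and 598 (2.31%) lower at E19. The 95% interval of the difference lay wholly within 2-fold, in both directions, for 25205 probes (97.5%). The median standard error of a difference was 0.13. Before adjustment for the number of probes, the 95% interval reached a median of 0.268 to each side of the difference. With 3 arrays a group, differences well above 0.13 could therefore be missed. Even Aqp4, with a difference of 1.20, was not called (limma adjusted p = 0.103). The main fit took arrays on the same chip as independent. With chip as a random block in limma, arrays of a chip had a correlation of 0.503. That fit had 564 probes at an unadjusted p under 0.05, 0 calls and a smallest adjusted p of 0.666. Among the alternative limma fits 4 made calls. Without E19 replicate 1 there were 4, namely Hba-a1, Aqp4 and 2 Hbb-b1 probes. There were 3 with the embryonic ages alone and 4702 (18.2%) with array weights. The array weights gave replicate 2 of E19 87.7% of the weight within its group, and the fit of the weights did not converge. The remaining fit, with array series as a fixed block, set E19 by replicate 1 alone. The series of E19 replicates 2 and 3 held no other C57BL/6J array.

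Neighbouring steps set this count in context. E17 against E16 also gave 0 calls, with 1005 probes at an unadjusted p under 0.05, and E18 against E17 gave 7 (0.0271%). P0 against E19 gave 4948 (19.1%), with 2561 probes higher and 2387 lower at P0. The median absolute difference was 0.084 for E19 against E18 and 0.185 for P0 against E19. That later step also shares no chip between its groups. The plot of calls by step shows the low counts from E16 to E19.

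None of the genes named from here on passed the test, so each difference is given as a value with its interval. The 9 marker genes Ttr, Hbb-b1, Mbp, Gfap, Mki67, Atoh1, Pcp2, Calb1 and Neurod1 were named under the general rule for this comparison, and the others were picked after their values were seen, by a small unadjusted p, a large difference, or an extreme place in a gene list.

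Adult haemoglobin transcripts had some of the smallest p-values. Hba-a1, adult alpha globin, had normalized levels of 13.60, 13.25 and 12.95 in E19 cerebella, against 14.07, 14.06 and 14.12 in E18 cerebella. The difference was -0.82 (SE 0.15, 95% interval -1.14 to -0.50, limma adjusted p = 0.103), and every E19 array lay below every E18 array. Without E19 replicate 1 it was -0.99 (limma adjusted p = 0.0398), and with only the embryonic ages in the fit, a setting chosen after seeing the data, it was -0.82 (limma adjusted p = 0.0252). Hbb-b1, adult beta globin, averaged 13.62 ± 0.51 at E19 and 14.52 ± 0.09 at E18 (SD, n = 3 each) on its brightest probe, a difference of -0.90 (SE 0.18, limma adjusted p = 0.134). Of 11 Hbb-b1 probes all were lower at E19, with differences from -1.18 to -0.02. With chip as a fixed block over both strains 6 of the 11 were lower, and the differences ran from -0.38 to 0.50. Without E19 replicate 1 limma called 2 of these probes, at -1.10 and -1.37 (adjusted p = 0.0398 each), but not the brightest, at -1.02 (adjusted p = 0.0906). Mouse beta globin genes are nearly identical, so these probes may read several of them together. RNA of blood in whole tissue reflects both the number of blood cells left in the sample and the RNA in each. In bulk samples, fewer cells of a type and less RNA per cell cannot be told apart.

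The haemoglobin difference depended on the quantile step. On the deposited scale Hba-a1 had signals of 11267, 10406 and 7986 at E19, against 13443, 16661 and 9487 at E18, and the groups overlapped. Without normalization the Hba-a1 difference was -0.39 and that of Hbb-b1 was -0.30, and with arrays scaled to equal medians they were -0.35 and -0.25. The brightest probe on an array reached 21783 to 25203 at E19 and 11933 to 21667 at E18, and the quantile step sets these to 1 common value. With chip as a fixed block over both strains the Hba-a1 difference was -0.14 and the Hbb-b1 difference -0.11. DBA/2J E18 arrays gave 14.38 and 14.48 for Hba-a1 on the chip of the E19 arrays, against 14.73 on the chip of the E18 arrays.

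Other red cell genes were dimmer. Alas2, the erythroid enzyme that starts haem synthesis, had 7.38, 7.63 and 7.67 at E19, against 7.99, 7.99 and 7.85 at E18, a difference of -0.39 (SE 0.19, limma adjusted p = 0.825) with no overlap. The embryonic globins Hbb-y and Hbb-bh1 differed by -0.01 and 0.05. The erythroid transcription factor Klf1 differed by -0.04. Of 18 blood genes listed, 14 were measured, with a median difference of -0.09 against -0.02 over all genes. None passed the test, 3 of the 14 had non-overlapping groups on the lower side, and that held for 7.53% of all genes. The summed normalized signal of the 14 genes was 17682 to 28667 at E19 and 40724 to 43517 at E18, carried by the globins.

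Among the 14 measured blood genes only Hbb-b1, Hba-a1 and Alas2 lay lower at E19 without overlap. With the chip block the differences were -0.14 for Hba-a1 and -0.38 for Alas2. The promoters of Hba-a1 and Alas2 are shown. Both come from RefSeq (GRCm38.p6), run 5′ to 3′ on the gene's strand from 250 bases before the gene start to 50 after, and lie at chr11:32283422-32283721 (+) and chrX:150547167-150547466 (+). Capitals mark, on either strand, the GATA motif (letters GATAA), the CACCC motif (those letters alone), the CCAAT motif (likewise) and the TATA motif (letters TATAA).
Hba-a1: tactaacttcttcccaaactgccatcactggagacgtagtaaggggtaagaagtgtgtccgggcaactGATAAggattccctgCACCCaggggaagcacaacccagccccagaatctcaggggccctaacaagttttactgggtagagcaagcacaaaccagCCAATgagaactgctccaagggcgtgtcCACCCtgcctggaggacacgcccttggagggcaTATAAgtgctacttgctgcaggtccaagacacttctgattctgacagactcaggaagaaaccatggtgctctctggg
Alas2: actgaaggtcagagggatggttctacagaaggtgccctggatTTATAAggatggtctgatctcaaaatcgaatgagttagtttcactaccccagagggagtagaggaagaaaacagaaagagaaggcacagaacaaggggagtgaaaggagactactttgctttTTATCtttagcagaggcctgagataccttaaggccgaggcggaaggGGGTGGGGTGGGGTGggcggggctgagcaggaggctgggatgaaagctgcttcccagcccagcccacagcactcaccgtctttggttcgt
The Hba-a1 window holds the GATA motif at -182, the CACCC motif at -167 and -60, the CCAAT motif at -88 and the TATA motif at -27 from the gene start. The Alas2 window holds the GATA motif on the opposite strand at -86, the CACCC motif on the opposite strand at -40, -35 and -30, and the TATA motif on both strands, overlapping, at -208 and -207. The CCAAT motif is not among its letters. Among 32851 mouse promoter windows of this length, 25.4% hold the GATA motif, 57.5% the CACCC motif, 37.4% the CCAAT motif and 24.9% the TATA motif, so matches of such short motifs are common.

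Aqp4, the water channel of astrocyte end feet, had the smallest unadjusted p (1.12e-05) when each gene was read on its brightest probe. Its levels were 8.75, 9.04 and 9.50 in E19 cerebella, against 7.94, 7.81 and 7.94 in E18 cerebella. The difference was 1.20 (SE 0.22, 95% interval 0.74 to 1.65, limma adjusted p = 0.103), a ratio of 2.30, and the groups did not overlap. Without E19 replicate 1, the lowest of its group, the difference was 1.37 (limma adjusted p = 0.0398). On the deposited scale the signals were 433, 572 and 751 at E19 and 249, 229 and 251 at E18, also without overlap. Across ages the mean level was 7.01 at E16, 7.50 at E17, 7.90 at E18, 9.10 at E19, 9.88 at P0 and 11.34 at P3. The 4 other detected Aqp4 probes were dim and differed by -0.05 to 0.18. With the chip block the difference was 0.48 (unadjusted p = 0.389). DBA/2J E18 arrays had 7.92 and 7.68 on the chip of the E19 arrays and 7.58 on the chip of the E18 arrays.

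Other astroglial genes lay mostly on the same side with smaller values. Of 20 Bergmann glia and astrocyte genes 18 were measured, 16 were higher at E19 and 0 passed the test. The median difference was 0.14 against -0.02 over all genes. Over all genes 8168 of 18585 were higher at E19, a share to set beside this and each later list. Of the 18 genes, 3 were higher at an unadjusted p under 0.05, against 3.37% of all genes, and 5 had every E19 array above every E18 array, where 7.94% of all genes did. Hopx, a homeodomain protein of radial glia, differed by 0.48 (9.93, 9.90 and 9.70 at E19, against 9.36, 9.20 and 9.52 at E18). Apoe, the lipid carrier made by astrocytes, differed by 0.30 with overlapping groups, and by 0.20 with the chip block. Gfap, the astrocyte filament protein, was dim, with 6.82, 7.02 and 7.07 at E19 and 6.87, 6.66 and 6.72 at E18 (difference 0.22, 95% interval -0.22 to 0.66), and with the chip block its difference was -0.22. Slc1a3 and the gap junction gene Gja1 each differed by 0.13, and with the chip block by 0.42 for Slc1a3 and 0.19 for Gja1. Outside that list, Tril, a co-receptor of Toll-like receptor signalling, had 10.77, 10.45 and 10.81 at E19 and 10.31, 10.25 and 10.26 at E18, with 11.20 at P0. The median of the astroglial list with the chip block was 0.20, and that of the DBA/2J chip difference was 0.05.

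Klf9, a transcription factor induced by thyroid hormone and glucocorticoids, had 9.15, 9.01 and 9.34 at E19, against 8.41, 8.53 and 8.81 at E18. The difference was 0.58 (SE 0.11, 95% interval 0.35 to 0.81, limma adjusted p = 0.103), and the groups did not overlap. Mean levels were 8.40 at E16, 8.44 at E17, 8.59 at E18, 9.17 at E19, 9.63 at P0 and 10.20 at P3. The DBA/2J E18 arrays had 8.85 and 8.79 on the chip of the E19 arrays and 8.77 on the chip of the E18 arrays, a difference of 0.05. A second, dimmer Klf9 probe differed by 0.05, and the chip block gave 0.33 for the brighter one.

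The hormone target lists that hold Klf9 spread around 0. Of 18 glucocorticoid targets 16 were measured and 6 were higher at E19, with 0 called and a median difference of -0.08. Fkbp5, the classical glucocorticoid-induced chaperone, differed by -0.30, and the clock gene Per1 by -0.34. With the chip block these were -0.19 for Fkbp5 and 0.31 for Per1. Of 14 thyroid hormone targets 12 were measured and 8 were higher, with 0 called and a median of 0.05. Itpr1, the inositol trisphosphate receptor of Purkinje cells, had 11.07, 11.11 and 11.41 at E19, against 10.84, 10.87 and 10.62 at E18. Its difference of 0.42 was 0.12 with the chip block, and its DBA/2J chip difference was 0.26.

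**Figure D1:**
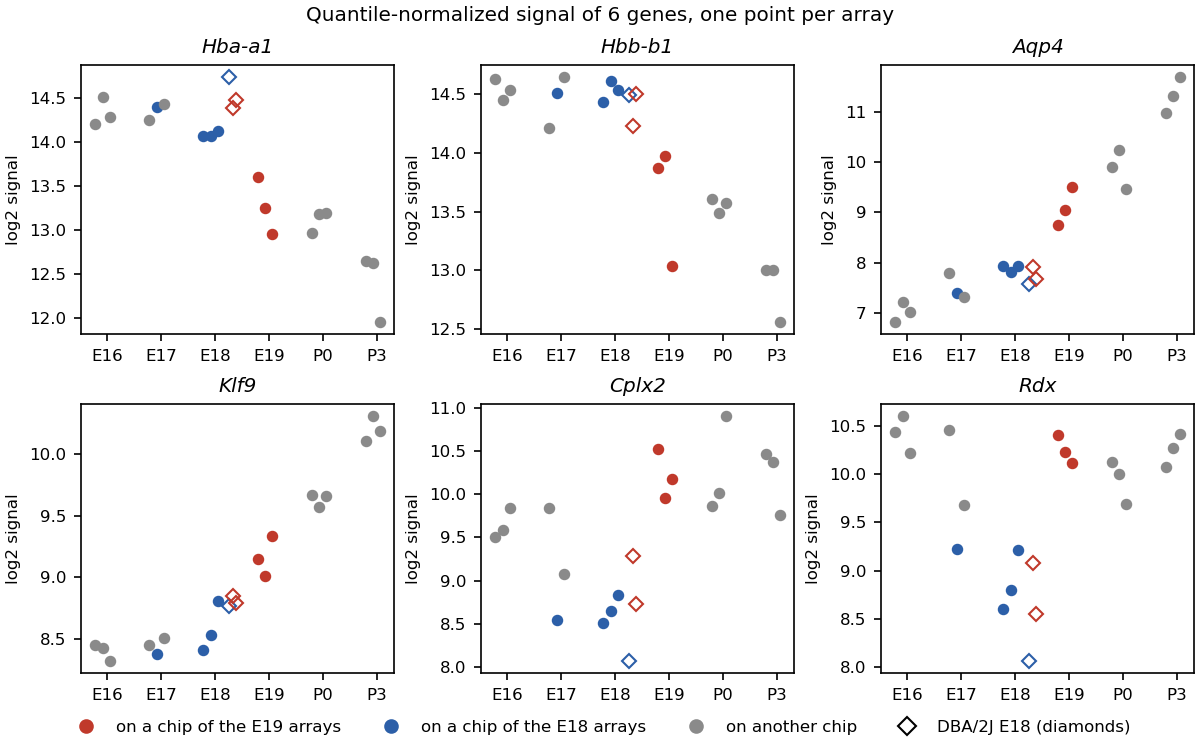
Each panel gives the log2 quantile-normalized signal (vertical axis) of 1 gene by age (horizontal axis), with circles for C57BL/6J arrays and diamonds for DBA/2J E18 arrays, coloured by chip. Aqp4 and Klf9 lie above every E18 array at E19 and continue upward at P0 and P3. Cplx2 and Rdx are low on the arrays of the E18 chips, the E17 array there included. For Aqp4, Klf9, Cplx2 and Rdx the DBA/2J arrays on the chip of the E19 arrays lie below every E19 array. These DBA/2J arrays differ from E19 in both strain and age, and each strain was normalized on its own. The differences of all of these genes were smaller with the chip block.

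Cplx2 and Rdx had the largest positive differences among brightest probes, apart from Rsl1d1, which rested on 1 array and is described below. Cplx2, complexin 2, which controls synaptic vesicle fusion, had 10.52, 9.95 and 10.18 at E19, against 8.51, 8.65 and 8.83 at E18 (difference 1.55, SE 0.38, 95% interval 0.77 to 2.33, limma adjusted p = 0.346). Rdx, radixin, which ties actin to the membrane, had 10.41, 10.23 and 10.12 at E19, against 8.60, 8.80 and 9.21 at E18 (difference 1.39, SE 0.32, limma adjusted p = 0.242). Neither gene overlapped between the ages on these probes, and a second, dimmer Rdx probe differed by 0.02. Unlike Aqp4, both were lower at E18 than on average at E16: Cplx2 had means of 9.64 at E16, 9.16 at E17, 8.66 at E18, 10.22 at E19 and 10.26 at P0, and Rdx had 10.42, 9.79, 8.87, 10.25 and 9.94 at those ages.

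Both genes were lowest within their group on the E17 array and the DBA/2J E18 array that lie on chips of the E18 arrays. These 2 arrays lie on different chips. One E17 array, replicate 2, lies on a chip of the E18 arrays. It had 9.22 for Rdx, against 10.46 and 9.68 on the other E17 arrays, and 8.55 for Cplx2, against 9.84 and 9.08. In DBA/2J at E18, Rdx had 9.08 and 8.55 on the chip of the E19 arrays and 8.06 on the chip of the E18 arrays, and Cplx2 had 9.29 and 8.73 against 8.07. With the chip block the differences were 0.69 for Rdx and 0.86 for Cplx2.

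The pattern held across the 39 probes that were at least 2-fold higher at E19 (0.151% of probes; 10 probes, 0.0387%, were at least 2-fold lower). At 36 of them the E17 array on an E18 chip was the lowest of its group, against 28.9% of all probes. At 38 the DBA/2J E18 array on the other E18 chip was the lowest of its group, against 35.1% of all probes. Their median difference was 1.11 in the main fit and 0.72 with the chip block. They included Ezh2, the histone H3 lysine methyltransferase of Polycomb (9.83, 10.06 and 9.80 at E19, against 8.59, 8.80 and 9.03 at E18), and Map2, the dendritic microtubule protein. Ezh2 differed by 1.09, and by 0.40 with the chip block, and Map2 by 1.03, and by 0.57 with the block. Others did not shrink in this way. Nrxn3, a presynaptic adhesion protein, differed by 1.00, and by 1.06 with the block. Cacna2d1, a calcium channel subunit, differed by 1.30, and by 1.20 with the block. These values are from the brightest probe of each gene. The 2 other detected Nrxn3 probes differed by -0.06 and 0.05 and the 2 of Cacna2d1 by 0.05 and 0.09. The 3 other Map2 probes differed by 0.17 to 0.58.

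**Figure D2:**
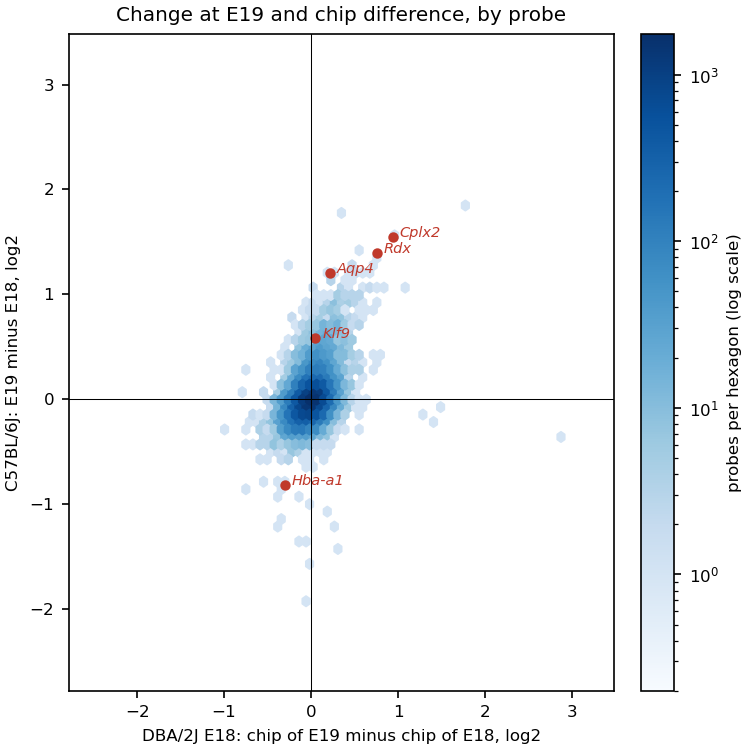
Hexagons count probes by the DBA/2J E18 difference between the chip of the E19 arrays and the chip of the E18 arrays (horizontal axis, log2) and the C57BL/6J difference E19 minus E18 (vertical axis, log2), with 5 genes in red. The cloud tilts upward: Cplx2 and Rdx lie high on both axes, while Klf9 is at 0.05 and Aqp4 at 0.22 on the horizontal axis.

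Over all 25843 probes the C57BL/6J difference and the DBA/2J chip difference had a Pearson correlation of 0.394. The probes share chips in both strains, and probes are not independent replicates. The sign was the same in both for 61.5% of probes. How much of any single difference belongs to age and how much to chip was not tested beyond the chip block, in which limma called 0 probes, with 1312 at an unadjusted p under 0.05.

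Genes of axon growth and synapse included several of these high values, with list medians near 0. Of 31 synapse genes, all measured, 21 were higher at E19, 0 were called and the median was 0.06. Syn2, a synaptic vesicle phosphoprotein, differed by 0.92 and Nlgn2, an adhesion molecule of inhibitory synapses, by -0.43. With the chip block these were 0.47 for Syn2 and -0.39 for Nlgn2. A second, dimmer Syn2 probe differed by -0.11. Snap25 and Syt1, core parts of the release machinery, differed by 0.06 and 0.00. Of 22 measured axon growth and guidance genes 11 were higher, 0 were called, and the median was -0.02. Map1b, a microtubule protein of growing axons, had 12.92, 12.52 and 12.49 at E19, against 11.28, 11.75 and 12.19 at E18, a difference of 0.90 that was 0.46 with the chip block. The netrin receptor Dcc had 12.13, 11.93 and 11.48 at E19, against 10.85, 11.13 and 11.06 at E18. Its DBA/2J chip difference was -0.11 and its difference with the chip block 0.61. Slit2, a repulsive guidance cue, differed by -0.40, and by -0.05 with the block.

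Proliferation genes differed little. Of 30 cell cycle genes 26 were measured, 11 were higher, 0 were called and the median difference was -0.02. The list median was -0.18 with the chip block and 0.15 for the DBA/2J chip difference. Mki67, the proliferation marker, had 10.01, 10.42 and 10.51 at E19, against 10.47, 10.34 and 10.33 at E18 (difference -0.07, 95% interval -0.43 to 0.30), and the groups overlapped. With the chip block its difference was -0.14. The list ran from -0.31 for Ube2c to 0.22 for Pcna (-0.62 and -0.06 with the block), and the interval lay within 2-fold for 25 of the 26 genes.

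Granule cell progenitor genes had a median of 0.10 over 10 measured of 14, with 7 higher and 0 called. Zic2, a zinc finger factor of the progenitors, had 9.15, 9.07 and 9.25 at E19, against 7.83, 8.37 and 8.29 at E18 (difference 0.99, limma adjusted p = 0.501). Of the same family, Zic1 and Zic4 differed by 0.42 and 0.33. Zic2 had a DBA/2J chip difference of 0.37. Atoh1, the defining factor of these progenitors, has no value. In the hedgehog pathway 12 of 15 genes were measured, 6 were higher, 0 were called and the median was 0.00. Its target Ccnd1, cyclin D1, differed by 0.50 (11.67, 11.57 and 11.79 at E19, against 11.19, 11.03 and 11.30 at E18), with a DBA/2J chip difference of 0.46, and by 0.20 with the chip block. The signal transducer Smo differed by -0.61, the receptor Ptch1 by 0.06 and the effector Gli2 by 0.15. With the block Ptch1 was at -0.26 and Gli2 at 0.01.

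Postmitotic granule neuron genes had a median of 0.05 (18 of 20 measured, 11 higher, 0 called). Cntn2, an adhesion molecule of newly made granule cells, differed by 0.93 with no overlap on its brightest probe. Its 2 other detected probes were dimmer and differed by 0.04 and 0.06. Neurod1, a differentiation factor of granule cells, had 9.84, 9.24 and 9.78 at E19, against 8.94, 8.78 and 9.84 at E18 (difference 0.43, 95% interval -0.43 to 1.29). With the chip block the Neurod1 difference was -0.09, and its DBA/2J chip difference was 0.68. Gabra6, a marker of mature granule neurons, stayed near background, at 5.99, 5.94 and 5.82 at E19, against 6.15, 5.86 and 6.01 at E18.

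Purkinje cell genes divided. Of 22 listed 19 were measured, 7 were higher, 0 were called, and the median was -0.04. Calb1, the calcium-binding protein calbindin, had 9.50, 9.61 and 9.44 at E19, against 9.28, 9.21 and 9.09 at E18 (difference 0.32, SE 0.11, limma adjusted p = 0.571), without overlap. Its difference with the chip block was 0.10. Ebf2, a transcription factor of a Purkinje cell subset, differed by -0.51 and parvalbumin, Pvalb, by -0.30 (-0.49 with the block). Pcp2, a Purkinje cell modulator of G protein signalling, differed by -0.12 on its brightest probe (95% interval -0.71 to 0.47), and by -0.01 with the block. GABAergic progenitor and interneuron genes had a median of -0.07 over 14 of 16 measured, and cerebellar nuclear and rhombic lip genes -0.05 over 13 of 16.

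Oligodendrocyte genes spread around 0. All 20 were measured, 11 were higher, 0 were called and the median was 0.03. The progenitor receptor Pdgfra differed by 0.34 and the lineage factor Olig1 by 0.32, and with the chip block by 0.18 for Pdgfra and -0.08 for Olig1. Mbp, myelin basic protein, had 7.76, 7.65 and 8.15 at E19, against 7.41, 7.45 and 7.88 at E18 (difference 0.27, 95% interval -0.24 to 0.78), and with the chip block its difference was -0.27. Its mean was 10.51 by P3. Ventricular zone and radial glia genes had a median of 0.11 over 18 of 19 measured.

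The lowest list median was that of hypoxia and glycolysis, -0.16 over 21 of 24 genes, with 5 higher and 0 called. Of the 21, 4 were lower at an unadjusted p under 0.05, against 2.38% of all genes. Slc2a1, the glucose transporter of the blood-brain barrier, had 8.90, 9.34 and 9.73 at E19, against 9.83, 9.76 and 9.83 at E18 (difference -0.49, and -0.30 with the chip block). Pdk1, a kinase that holds back pyruvate oxidation, differed by -0.41 and the glycolytic enzyme Gpi1 by -0.28 (-0.12 with the block). Vegfa, the vascular growth factor, differed by -0.06 and Pgk1 by 0.09. For Slc2a1 and Pdk1 the first replicate of E19 was the lowest array. The list's median DBA/2J chip difference was -0.11, and its median with the chip block was -0.11. Oxidative phosphorylation genes had a median of 0.03 over 25 of 27, with Cox5b, a cytochrome oxidase subunit, at -0.43 (-0.09 with the block).

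Immediate early genes, which respond within minutes to stimulation, had a median of -0.11 over 13 of 19 genes, with 2 higher and 0 called. Egr1 had 7.24, 7.18 and 7.44 at E19, against 7.82, 7.66 and 7.70 at E18 (difference -0.44), and the groups did not overlap. Jun differed by -0.51, Dusp1 by -0.21 and Jund by 0.45. In DBA/2J the chip difference was -0.78 for Egr1, -0.27 for Jun and -0.27 for Dusp1, and with the chip block the differences were 0.03 for Egr1, -0.27 for Jun and 0.07 for Dusp1. The list median was -0.20 for the DBA/2J chip difference and 0.01 with the chip block.

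Vascular genes lay slightly low. Of 19 measured endothelial and pericyte genes of 21 listed 1 was higher at E19, Mfsd2a with 0.05, where 8168 of all 18585 genes were. The median was -0.11, with 0 called. Kdr, the endothelial receptor of Vegfa, differed by -0.24 (-0.06 with the chip block) and the tight junction gene Cldn5 by 0.00. All 19 intervals lay within 2-fold. Microglia and macrophage genes had a median of 0.00 over 16 of 18, with the fractalkine receptor Cx3cr1 at 0.36 (0.24 with the block).

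Genes of adjoining tissue were examined as a check on dissection. Ttr, transthyretin, the main secreted product of the choroid plexus, had 7.30, 7.40 and 7.40 at E19, against 8.14, 8.07 and 9.63 at E18. The difference was -1.25 (SE 0.50, 95% interval -2.27 to -0.22, limma adjusted p = 0.648), and the third E18 array stood well above the others. Without that array the difference was -0.74, and with the chip block it was -0.82. Of 14 choroid plexus genes 10 were measured, and those other than Ttr ran from -0.27 to 0.32. Their summed normalized signal, Ttr included, was 2052 to 2295 at E19 and 2062 to 2960 at E18, and their part in the results above was not tested. Midbrain and brainstem genes had a median of -0.13 over 13 of 18, with 2 higher and 0 called. Isl1, a factor of motor and other neurons, had 7.33, 7.94 and 7.71 at E19, against 8.13, 8.06 and 8.20 at E18, a difference of -0.47 that was -0.25 with the block. En1 and En2, which are also made in the cerebellum itself, differed by -0.34 and -0.32. The summed signal of that list was 7452 to 8259 at E19 and 8743 to 9468 at E18, and its part in the results was not tested. Meninges, muscle and caudal Hox genes had medians of -0.05, -0.03 and 0.11.

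**Figure D3:**
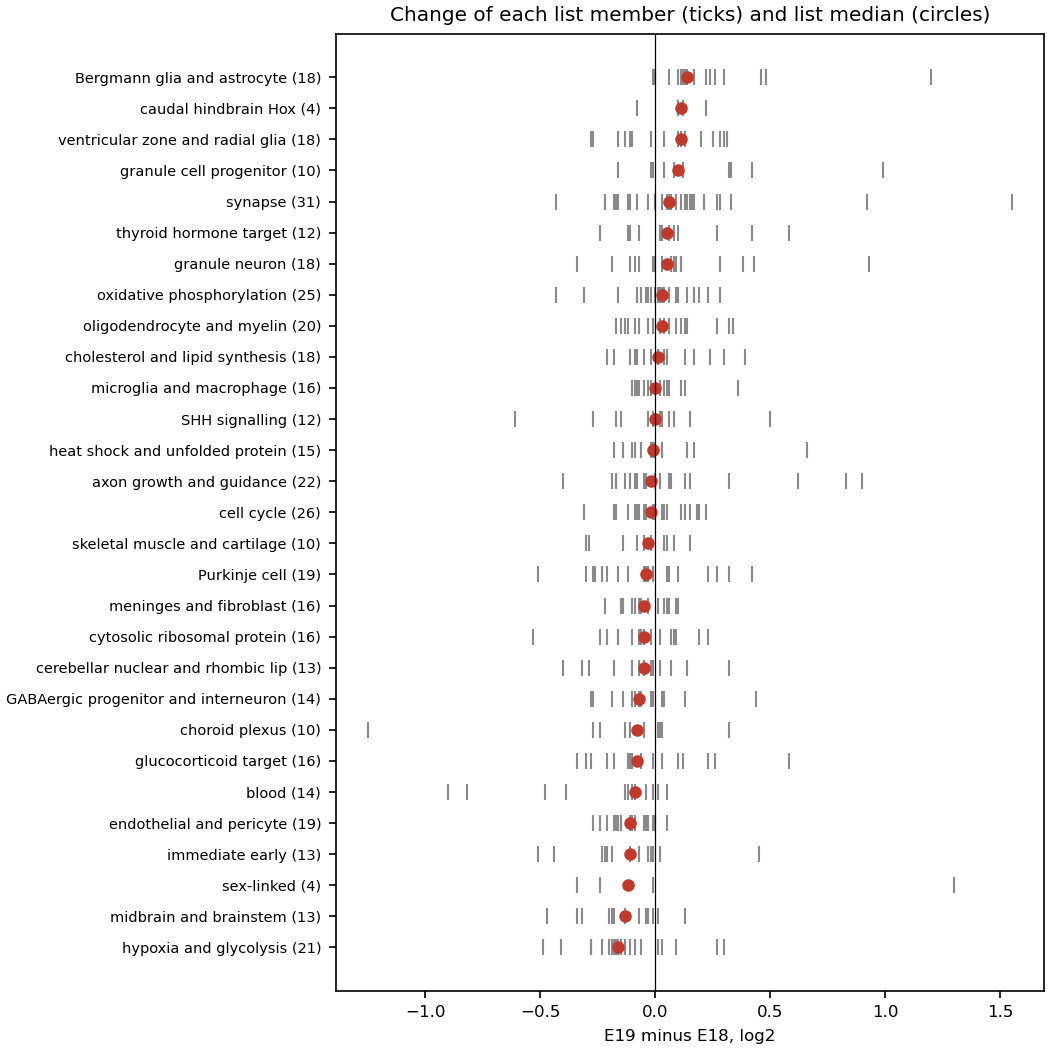
Grey ticks give the difference E19 minus E18 (log2, horizontal axis) of each measured gene of 29 lists, with the number of genes in brackets, and red circles the list median. The medians lie between -0.16 and 0.14, and 0 genes in the lists passed the test.

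Some of the largest differences rested on 1 array. A probe was counted as discordant when 1 array lay at least 3 log2 units from both other replicates, which were within 1 of each other. On E19 replicate 1, 5 probes were far below the other 2 arrays, and on E18 replicate 1 there were 2. F830002E14RIK was instead high on 1 array at each age, with 12.22 at E19 replicate 1, against 8.82 and 8.45 on the other E19 arrays, and 13.17 at E18 replicate 2, against 10.06 and 9.42 on the other E18 arrays. The other 3 arrays of both ages had 0 discordant probes. One bright Pcp2 probe had 5.72 at E19 replicate 1, below the array median, against 10.45 and 10.82 on the other E19 arrays and 11.06, 11.00 and 10.72 at E18. The second Pcp2 probe had 9.20, 9.33 and 9.0 at E19. Camta2, a calmodulin-binding transcription factor, had 5.75, 10.30 and 10.36 at E19, against 10.61, 10.35 and 10.27 at E18. Kcnd2, a potassium channel subunit, had 5.76 at E19 replicate 1 on one probe, while its other probe had 8.14, 8.18 and 8.03 at E19, against 6.93, 7.08 and 7.44 at E18. The 2 Kcnd2 probes thus differed by -1.35 and 0.97. Rsl1d1, a nucleolar protein, had the mirror case, with 5.66 at E18 replicate 1 and 9.87 and 10.26 on the other E18 arrays. Of the 49 probes at least 2-fold apart, 8 had such an array. With array series as a fixed block E19 rested on replicate 1 alone. The differences were then -4.6 for Camta2 and -4.44 for the Kcnd2 probe that dropped on that array.

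**Figure D4:**
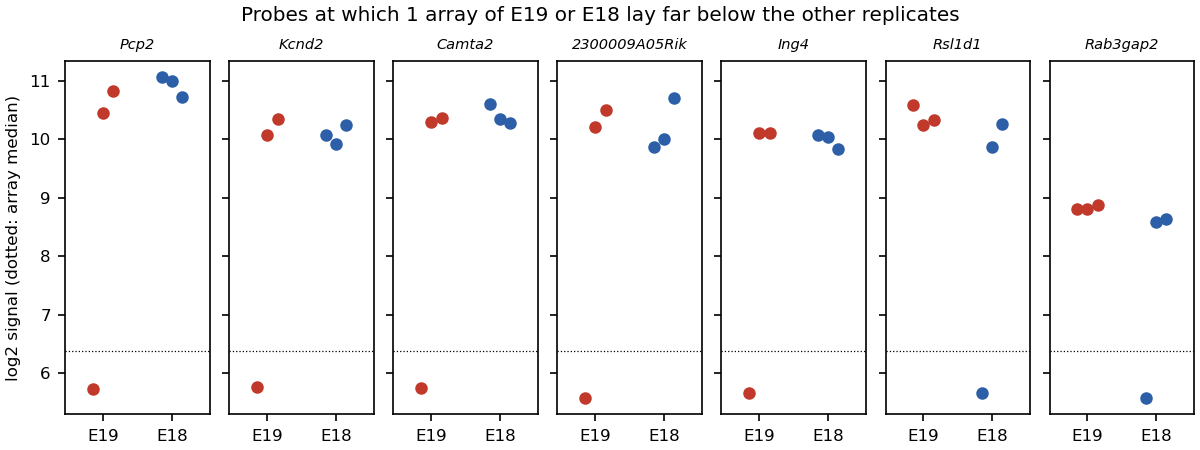
Each panel gives the log2 signal (vertical axis) of 1 probe on the 3 E19 arrays (red) and the 3 E18 arrays (blue), and the dotted line marks the array median. In the 5 panels on the left 1 E19 array lies below the median, and in the 2 on the right 1 E18 array does.

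Sex-linked transcripts varied within E19. Xist, the RNA that silences an X chromosome in female cells, had 10.53, 10.57 and 8.92 at E19, against 8.79, 8.59 and 8.74 at E18. The difference was 1.30 (SE 0.91, 95% interval -0.56 to 3.16, limma adjusted p = 0.999), and 1.91 with the chip block. The Y-linked Eif2s3y had 8.44, 8.69 and 9.27 at E19, against 9.0, 9.04 and 9.39 at E18 (difference -0.34, and -2.71 with the chip block). In DBA/2J at E18, Eif2s3y had 9.05 and 8.91 on the chip of the E19 arrays and 6.08 on the chip of the E18 arrays. The DBA/2J chip differences rest on that 1 array for the chip of the E18 arrays, and the values with the chip block lean on it too. In C57BL/6J both transcripts were present on every E19 and E18 array. The first 2 E19 arrays had more Xist and less Eif2s3y than the third.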

How the data were processed

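Per the file headers, the authors deposited 1 table per strain of average signal, a linear intensity for each of 46632 probes. No scanner setting or background step is named in the labels or headers. They also deposited a matrix whose score is a rescaled log2 signal (mean 8, SD 2 on every array), used only as an alternative. RNA was extracted with Trizol, per the labels' protocols. The C57BL/6J table was quantile normalized over 35 arrays and log2 transformed. The DBA/2J table was treated likewise on its own, over 31 arrays. For the fit with the chip block both strains were normalized together. Symbols were matched to RefSeq (26307 probes directly and 7973 through an older symbol), and 12352 probes kept the file's name. limma 3.58.1 (R 4.3.3) fitted 1 mean per age, with 23 residual degrees of freedom and Benjamini-Hochberg adjustment. The test was two-sided, and the fit was tested on simulated data. The labels call the replicates biological. The detected probe with the highest mean stood for a gene. The number of arrays limits precision. The general rule named 9 markers whatever their values, and called genes, of which there were 0. The genes and lists were chosen with earlier results of these data known. A few genes of the lists are not reported here by name.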

Additional observations from a re-analysis of the deposited data

How the results depend on the processing

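The count of 0 called probes recurred in 21 of 25 alternative settings (limma, adjusted p under 0.05). At an adjusted p under 0.01 the main fit had to give 0 as well, because its smallest limma adjusted p was 0.103. Calls numbered 4702 with array weights, 10 with array series as a fixed block and 3 with the embryonic ages alone (Hba-a1, Slc4a4 and B930090K24RIK), the last chosen after seeing the data, as were 2 others. Leaving out 1 replicate gave 0 to 4 calls. The 4 came without E19 replicate 1: Hba-a1, Aqp4 and 2 Hbb-b1 probes, with adjusted p = 0.0398. A replicate block gave 0 calls and moved no call. Same-numbered arrays deviated with correlations of -0.282, 0.236 and -0.058, so the numbers were not taken as pairs. Over the log2 settings the difference ran from 0.48 to 1.39 for Aqp4, 0.33 to 0.70 for Klf9, -0.99 to -0.14 for Hba-a1 and -1.07 to -0.11 for Hbb-b1. Of 910 values for 38 genes, 0 reversed a direction whose 95% interval excluded 0 and 34 passed the threshold, 30 of these with array weights. The 38 genes did not cover all members of the lists. Egr1 (95% interval -0.85 to -0.02) and Dusp1 (-0.38 to -0.05) changed sign with the chip block, to 0.03 and 0.07. Dim probes near the array median limit what can be seen of low transcripts.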
